A study of Mus musculus with 12 samples.

Results

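The Ca2+/calmodulin-dependent protein kinase (CaM kinase) family was examined as 9 genes, taken by symbol from the raw gene counts: Camk2a, Camk2b, Camk2d and Camk2g, Camk4, Camkk1 and Camkk2, and Camk1 and Camk1d. They are 9 of 48709 Ensembl genes in the count tables and 9 of the 18847 genes that were tested. RNA was sequenced from 12 samples of primary hippocampal cultures of CD1 mice, prepared at embryonic day 17 from the pooled hippocampi of several embryos. At day 10 in vitro the cultures received lipid nanoparticles together with ApoE4, and they were harvested 48 h later, at day 12 in vitro. In 6 samples the nanoparticles held a mimic of miR-148a-3p, a synthetic double strand that raises the level of this microRNA, and in 6 they held a negative control oligonucleotide (scrambled RNA). No genetic change was named for either group, and both groups received the nanoparticles and ApoE4. The labels do not say whether the 6 samples of a group came from separate cultures or preparations, so the p-values below measure the spread between these samples only. The cultures hold neurons and glia, and in such bulk RNA fewer cells of a type and less RNA per cell cannot be told apart.

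CaM kinases turn a rise of Ca2+ into protein phosphorylation, because Ca2+-loaded calmodulin binds the kinase and lifts its autoinhibition. CaMKII is a large holoenzyme that mixes subunits from Camk2a, Camk2b, Camk2d and Camk2g. At glutamatergic synapses of the hippocampus it binds NMDA receptors and strengthens transmission during long-term potentiation. CaMKI and CaMKIV work in a cascade instead, in which the upstream kinases CaMKK1 and CaMKK2 phosphorylate their activation loop, and nuclear CaMKIV acts on CREB.

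A microRNA recognises transcripts mainly through its seed, bases 2 to 8, so the seeds of both oligonucleotides are shown first, in capitals, 5′ to 3′. The sequences are those in the reagent list of the study, and the mimic strand is the same as the mature mouse miR-148a-3p in RefSeq. The control is described as a siRNA in the series text, and values for its seed therefore rest on the assumption that the listed oligonucleotide was used.
miR-148a-3p mimic: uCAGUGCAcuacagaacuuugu
negative control: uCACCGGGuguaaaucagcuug
The matching words in a transcript are TGCACTG or GCACTGA for the mimic and CCCGGTG or CCGGTGA for the control, the second of each pair being bases 2 to 7 followed by an A. In the longest annotated 3′ untranslated region (UTR) of each gene (GENCODE M21, GRCm38, the build also called mm10), 2 of the 9 CaM kinase genes held a mimic match, Camk2a and Camk2d, each with 1. Of all 15082 tested genes with such a region, 3306 (21.9%) held one. The match of Camk2d, a gene that was not called, is shown as an example. It lies at chr3:126843484-126843513 on the plus strand, in the 3′ UTR of transcript Camk2d-226, where it begins at base 761 of 3591, and its capitals mark the 7 matching bases.
Camk2d site: ggtgaatgcttgGCACTGAtttgggttttt
The Camk2a match, to bases 2 to 8, begins at base 1579 of the 3372-base 3′ UTR of transcript Camk2a-203. Camk2a is also on the study's list of predicted miR-148a-3p targets, and none of the other 8 genes is. No longest 3′ UTR of the 9 genes held a match to the control seed, which 4.42% of the tested genes had, while another isoform of Camkk2 (Camkk2-201) had 1.

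Library totals ran from 20018234 to 37149112 counts, and the shallowest were control replicates 1 and 2. Control replicate 1 also stood apart from the other 11 libraries on the second principal component (19.3% of the variance), whereas the first (23.7%) separated mimic from control. For members whose value moved by over 1.5 times without them, values are given with and without. Defining neuronal markers were present in all libraries: the 8 summed to between 6678 and 7481 CPM (a gene's counts divided by its library's total after TMM scaling) in control and between 6607 and 6982 in mimic, and the excitatory marker Slc17a7 reached 746 ± 64.4 CPM in control (SD, n = 6). Glial markers were abundant too, with 7 astrocyte markers at 4810 to 5297 CPM in control. The 3 endothelial markers summed to at most 1.44 CPM, and the 5 microglial markers to between 7.48 and 14.1 CPM over all libraries.

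The comparison asked whether transcripts of the CaM kinases changed when miR-148a-3p was raised. All 9 genes passed the filter on low counts, with mean counts from 887 (Camk1) to 48684 (Camk2a). Within the CaMKII genes, Camk2a was 1.13-fold higher in mimic, and Camk2b and Camk2g were 0.876-fold and 0.925-fold their control level. None of the other 6 genes passed the test. Thus 1 of 9 was higher and 2 of 9 were lower at an edgeR adjusted p under 0.05, against 22.2% of all tested genes in either direction (11.5% higher and 10.7% lower). Among genes with a mean of at least 1000 counts, as 8 of the 9 had, 26.9% were called. The median log2 fold change of the 9 was 0.02, beside -0.01 over all tested genes. For comparison, called genes in general had a median absolute log2 fold change of 0.30, and 25.4% of them had a smaller one than Camk2b.

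**Figure D1:**
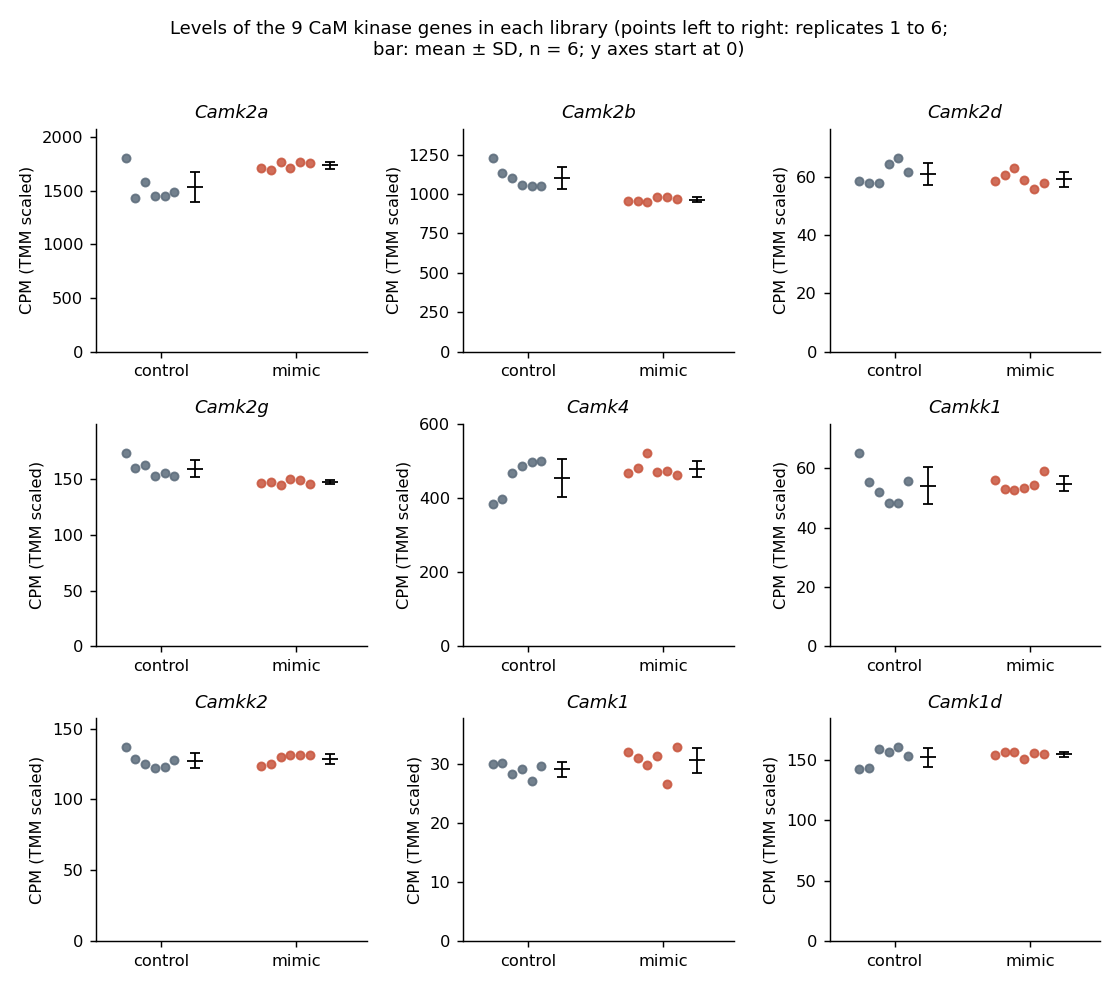
Level of each of the 9 CaM kinase genes (y axis, CPM after TMM scaling, from 0) in the 6 control and 6 mimic libraries, with the mean and SD beside the points. All Camk2b and Camk2g mimic points lie under all control points, and for Camk2a only control replicate 1, at 1801 CPM, lies above the mimic points.

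Camk2a encodes the alpha subunit of CaMKII, which is the forebrain form found mainly in excitatory neurons. It had 1427 CPM in the lowest, 1467 in the median and 1801 in the highest control library, and 1691, 1734 and 1768 CPM in mimic. The groups overlapped through control replicate 1 alone, since the other 5 controls reached at most 1581 CPM. The log2 fold change was 0.18 (SE 0.049, edgeR adjusted p = 0.0140), and all 6 mimic libraries lay above the control mean. Without control replicate 1 it was 0.23 (edgeR adjusted p = 4.60e-06) and without control replicates 1 and 2 it was 0.22 (edgeR adjusted p = 8.09e-07). The call held in each of the 12 fits that left out 1 library.

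Camk2b (chr11:5969644-6066362, minus strand) encodes the beta subunit, which binds F-actin and anchors the holoenzyme in dendritic spines. Control libraries had 1049, 1079 and 1228 CPM (lowest, median, highest) and mimic libraries 951, 961 and 984 CPM. Every mimic library was therefore below every control library. The log2 fold change was -0.19 (SE 0.039, edgeR adjusted p = 0.00143), and it was -0.14 without control replicates 1 and 2 (edgeR adjusted p = 4.77e-05). The call was lost when libraries were scaled to equal summed levels of 14 neuronal and excitatory markers (log2 fold change -0.14, edgeR adjusted p = 0.0754), under which Camk2a stayed called at 0.23 (edgeR adjusted p = 0.00818). That scaling raised the log2 fold change of all genes by 0.06 at the median and turned the share of calls that were higher in mimic from 51.7% into 73.8%.

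Camk2g (chr14:20734875-20794088, minus strand) encodes the gamma subunit, a more widely expressed form that has been tied to carrying calmodulin to the nucleus. It had 152, 158 and 174 CPM in control and 145, 147 and 150 CPM in mimic, again with no overlap. The log2 fold change was -0.11 (SE 0.035, edgeR adjusted p = 0.0278), and -0.08 without control replicates 1 and 2 (edgeR adjusted p = 0.0244). This call was close to the threshold: it was kept in 7 of the 12 fits without 1 library, and lost without control replicate 3 or mimic replicate 1, 2, 3 or 6 (edgeR adjusted p from 0.0516 to 0.0610). It was also lost under the neuronal marker scaling (log2 fold change -0.06, edgeR adjusted p = 0.443) and without the filter on low counts (edgeR adjusted p = 0.0750). Of all tested genes, 13.3% had 6 against 6 libraries without overlap, and among the CaM kinases these were Camk2b and Camk2g.

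Camk2d (chr3:126596302-126846326, plus strand) encodes the delta subunit, best known from heart. Its 3′ UTR carries the mimic match printed above. Control libraries had 57.7, 59.9 and 66.3 CPM and mimic libraries 55.8, 58.6 and 62.9 CPM, and the groups overlapped. The log2 fold change was -0.05 with a 95% interval from -0.13 to 0.04 (edgeR adjusted p = 0.492), and it turned to 0.01 under the neuronal marker scaling. Without control replicates 1 and 2 it was -0.08 (edgeR adjusted p = 0.125). Of the 2 CaM kinase genes with a mimic match, Camk2a was higher and Camk2d was not called. The called lower genes, Camk2b and Camk2g, held no match. Whether the mimic acted on any of these transcripts through a match was not tested.

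Because Camk2a and Camk2b moved in opposite directions, the make-up of the CaMKII transcripts was described in each library, as the share of each gene in the summed level per kilobase of exon. These shares do not depend on how libraries are scaled to each other. They are built from genes already called in opposite directions, and a rise of one share lowers the others. They therefore describe the same change and do not test it again. Camk2a made up 58.0% ± 1.27 of the CaMKII level in control and 63.8% ± 0.553 in mimic (SD, n = 6), 5.87 percentage points more. The highest control library had 59.5% and the lowest mimic library 63.1%, so that control replicate 1, which had the highest Camk2a level in CPM, lay with the other controls. Leaving out any 1 library gave differences of 5.44 to 6.18 points. The share of Camk2b fell from 34.2% ± 1.06 to 29.1% ± 0.440 and that of Camk2g from 7.06% ± 0.216 to 6.33% ± 0.123 (SD, n = 6), both without overlap between the groups. Camk2d held 0.771% ± 0.0889 and 0.722% ± 0.0337 (SD, n = 6), and here the groups overlapped. With the length of the longest coding transcript in place of the exon union, the Camk2a share was 48.4% in control and 54.5% in mimic, again without overlap.

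**Figure D2:**
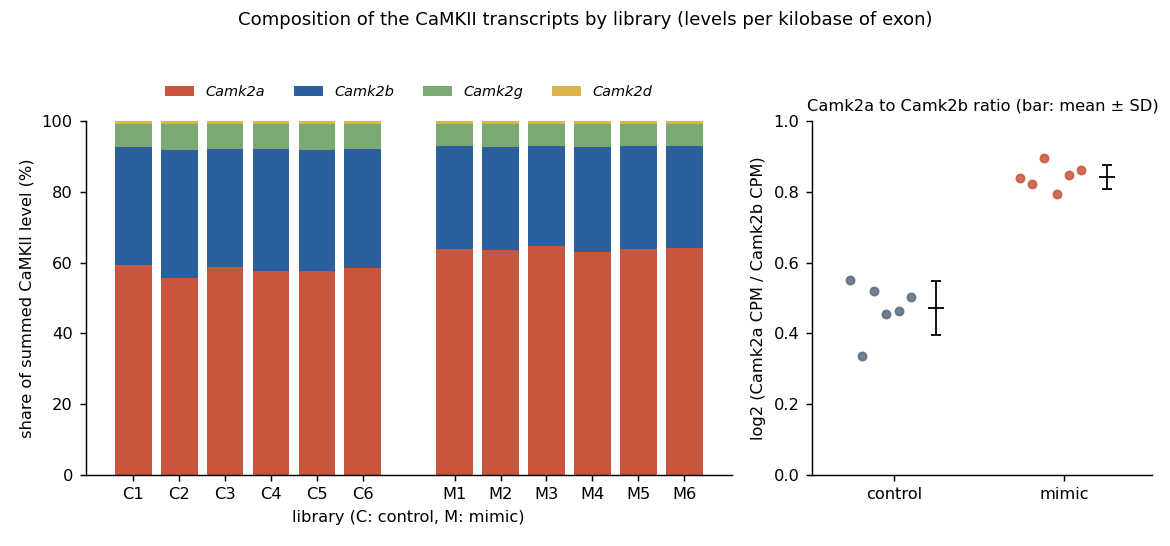
Left, share of Camk2a, Camk2b, Camk2g and Camk2d in the summed CaMKII level per kilobase of exon (y axis, percent, stacked from 0 to 100) in each control (C) and mimic (M) library; right, log2 ratio of Camk2a to Camk2b CPM by library with mean and SD. The Camk2a share is at most 59.5% in control and at least 63.1% in mimic.

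The log2 ratio of Camk2a to Camk2b, in CPM, was 0.47 ± 0.08 in control and 0.84 ± 0.03 in mimic (SD, n = 6). Its control values ran from 0.34 to 0.55 and its mimic values from 0.79 to 0.89. The log2 ratio of Camk2b to Camk2g differed much less, by -0.08, although its groups also did not overlap. The 2 lower genes thus kept a ratio closer to that of control than either kept to Camk2a. The summed CPM of the 4 CaMKII genes was 2855 ± 210 in control and 2905 ± 36.4 in mimic (SD, n = 6) with overlap. Without control replicate 1, the highest at 3262 CPM, the control sum was 2774 ± 75.3 (SD, n = 5), 131 CPM below mimic, and control libraries reached 2902 where the lowest mimic library had 2855. No test was applied to these composite values.

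The cascade kinases came next. Camkk1 and Camkk2 encode the upstream CaM kinase kinases, and CaMKK2 also phosphorylates AMPK, the energy sensor of the cell. Camkk1 (chr11:73019008-73042073, plus strand) had 48.2, 53.8 and 65.3 CPM in control and 52.6, 53.8 and 59.2 CPM in mimic. Camkk2 (chr5:122731170-122779409, minus strand) had 122, 126 and 137 CPM in control and 123, 130 and 131 CPM in mimic. Both overlapped fully, and control replicate 1 was the highest control for each. The 95% intervals of the log2 fold change ran from -0.10 to 0.14 for Camkk1 (edgeR adjusted p = 0.875) and from -0.05 to 0.08 for Camkk2 (edgeR adjusted p = 0.794). Without control replicate 1 the log2 fold changes were 0.08 for Camkk1 (edgeR adjusted p = 0.226) and 0.04 for Camkk2 (edgeR adjusted p = 0.387), and without control replicates 1 and 2 they were 0.10 (edgeR adjusted p = 0.0745) and 0.05 (edgeR adjusted p = 0.232). Their log2 ratio, Camkk2 to Camkk1, was 1.24 ± 0.10 and 1.23 ± 0.07 (SD, n = 6).

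Camk4, on chromosome 18, encodes CaMKIV, the mainly nuclear kinase that phosphorylates CREB. Its control libraries had 382, 476 and 499 CPM and its mimic libraries 461, 470 and 522 CPM. The low controls were replicates 1 and 2, at 382 and 398 CPM, and the high mimic library was replicate 3. The log2 fold change was 0.07 (95% interval -0.05 to 0.20, edgeR adjusted p = 0.468), without control replicate 1 it was 0.03 (edgeR adjusted p = 0.754), and without control replicates 1 and 2 it was -0.03 (edgeR adjusted p = 0.595). Its exons share 72 bases with an antisense gene, 2310026I22Rik, which had a mean of 5.33 counts.

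Camk1 (chr6:113334124-113343984, minus strand) and Camk1d (chr2:5293457-5714515, minus strand) encode cytosolic CaMKI forms, which act in axon growth and dendrite development. Camk1 had 27.0, 29.3 and 30.2 CPM in control and 26.6, 31.1 and 32.7 CPM in mimic (log2 fold change 0.08, 95% interval -0.02 to 0.17, edgeR adjusted p = 0.316). Its exons share 232 bases with Ogg1 on the other strand, a gene with a mean of 278 counts and an edgeR adjusted p of 0.815, and reads of these bases may count for either if strand was not used. Camk1d had 143, 155 and 160 CPM in control and 151, 156 and 156 CPM in mimic (log2 fold change 0.02, 95% interval -0.05 to 0.09, edgeR adjusted p = 0.748). Neither gene separated the groups. For Camk1d, as for Camk4, control replicate 1 was the lowest control, and its log2 fold change was 0.0024 without it and turned to -0.02 without control replicates 1 and 2.

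**Figure D3:**
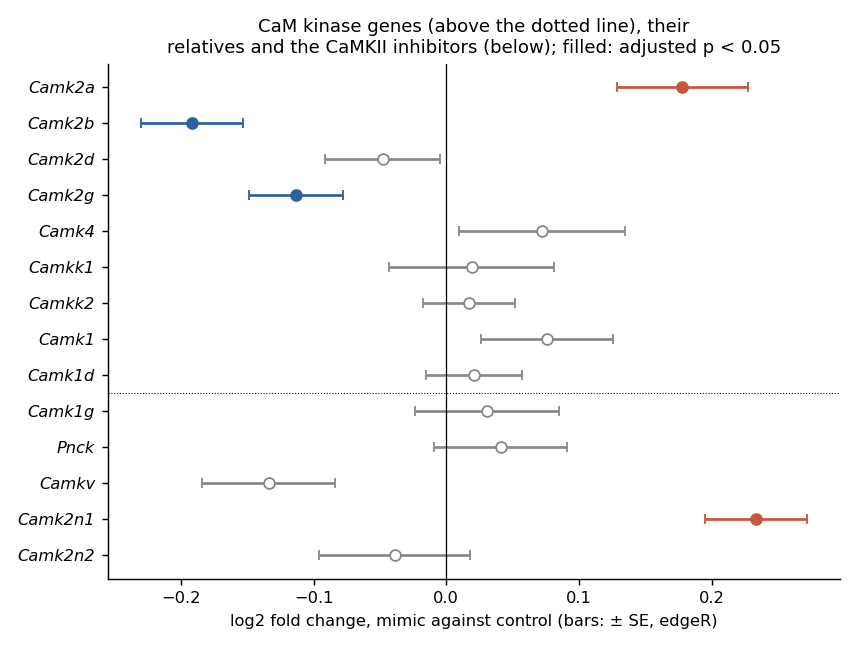
Log2 fold change of mimic against control (x axis) with its edgeR standard error for the 9 CaM kinase genes, above the dotted line, and for 3 relatives and the 2 CaMKII inhibitor genes below it. Filled points passed the edgeR test: Camk2a and Camk2n1 to the right of 0, Camk2b and Camk2g to the left.

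Control replicate 1 had the highest control value for 5 of the 9 genes and the lowest for 2. The spread in control was wider than in mimic for 8 of them, the exception being Camk1, with a coefficient of variation of 9.33% against 1.94% for Camk2a and of 6.33% against 1.46% for Camk2b. Compared per kilobase of exon, the control level of Camk2a was the highest, at 205 ± 19.1 CPM per kilobase, and those of Camk4 (140 ± 15.8) and Camk2b (121 ± 7.65) followed with overlapping ranges (SD, n = 6). Camk2g (24.9 ± 1.24), Camk1d (20.5 ± 1.06), Camkk1 (14.5 ± 1.70), Camkk2 (11.6 ± 0.479), Camk1 (4.85 ± 0.203) and Camk2d (2.71 ± 0.164) came below them in CPM per kilobase, each neighbour without overlap (SD, n = 6). In mimic the order was the same, but Camk4 and Camk2b no longer overlapped, at 147 ± 6.84 and 106 ± 1.54 CPM per kilobase (SD, n = 6). The order depended on the length used. Per kilobase of the longest coding transcript, Camk2b (274 ± 17.3) ranked second in control and overlapped with Camk2a (308 ± 28.8), and Camkk2 ranked above Camk1d, Camk1 and Camkk1 (SD, n = 6).

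**Figure D4:**
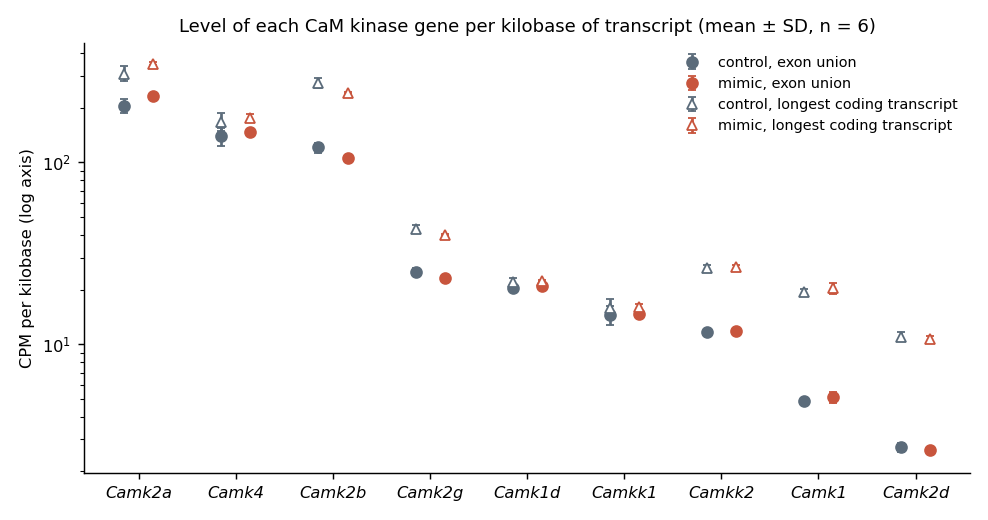
Level per kilobase (y axis, CPM per kilobase, log axis; mean and SD of 6 libraries) of each CaM kinase gene in control and mimic, by exon union (filled circles) and by longest coding transcript (open triangles). Camk2a is highest and Camk2d lowest by both lengths, Camk2g holds rank 4 by both, and the other 6 genes change places with the length.

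Of 11 related kinases tested, 2 were higher and 1 was lower, beside the 22.2% called among all tested genes, with a median log2 fold change of 0.01. Camk1g, which encodes CaMKI gamma, had a log2 fold change of 0.03 (edgeR adjusted p = 0.755; 0.08 and 0.140 without control replicate 1), and Pnck, which encodes CaMKI beta, had 0.04 (edgeR adjusted p = 0.628; 0.11 and 0.0253 without control replicates 1 and 2). Camkv, a kinase-like protein of spines without kinase activity, had 712 to 901 CPM in control and 679 to 721 in mimic and did not pass the test (log2 fold change -0.13, edgeR adjusted p = 0.0671), although it did without control replicate 4 or 5 (edgeR adjusted p = 0.0453 and 0.0418) and without the filter on low counts (edgeR adjusted p = 0.0494). Without control replicate 1 its log2 fold change was -0.08 (edgeR adjusted p = 0.0576), and without control replicates 1 and 2 it was -0.06 (edgeR adjusted p = 0.0966). Dclk2, a doublecortin-like kinase of microtubules, was higher by 0.19 on the log2 scale (209 ± 12.4 to 239 ± 8.93 CPM, edgeR adjusted p = 0.00200). Dapk1, a calmodulin-regulated kinase linked to cell death, fell by 0.15 on the log2 scale without overlap (edgeR adjusted p = 0.0130; -0.10 and 0.0139 without control replicates 1 and 2). Under the neuronal marker scaling it was no longer called (log2 fold change -0.10, edgeR adjusted p = 0.256). The remaining called relative, Eef2k, which slows translation elongation and was named after its value was seen, was higher by 0.15 on the log2 scale (edgeR adjusted p = 0.0127). Without control replicates 1 and 2 the relatives had 3 higher and 2 lower genes.

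Calm2 and Calm3, named after their values were seen, encode calmodulin, the activator that all members share, and neither was called. Calm2 had 550 ± 28.0 CPM in control and 559 ± 30.1 in mimic, and Calm3 had 1860 ± 125 and 1761 ± 26.4 CPM (SD, n = 6). Their adjusted p from edgeR was 0.766 and 0.185. In the list of 6 genes for calmodulin and its binding proteins, 0 were higher and 1 was lower, beside 11.5% and 10.7% of all tested genes (0 and 1 at an unadjusted p under 0.05; 2 lower without control replicates 1 and 2), with a median log2 fold change of -0.04. The lower gene was Gap43, a growth cone protein that binds calmodulin in the absence of Ca2+. It had 894, 898 and 993 CPM in control and 764, 795 and 830.5 CPM in mimic, so that no library overlapped, and its log2 level fell by 0.20 (SE 0.035, edgeR adjusted p = 0.000322).

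Among 14 inhibitors and opposing phosphatases, 1 was higher and 2 were lower, beside 11.5% and 10.7% of all tested genes, with a median log2 fold change of -0.03. The higher gene was Camk2n1, which encodes an endogenous peptide inhibitor of CaMKII. It had 99.8, 107 and 112 CPM in control and 117, 124 and 131 CPM in mimic, and no control library reached the lowest mimic library. Its log2 fold change was 0.23 (SE 0.038, edgeR adjusted p = 0.000235), and it lay between 0.22 and 0.29 under every alternative tried, though a minimum fold change of 1.2 ended its call. Its sister inhibitor Camk2n2 had 45.4 ± 4.44 and 44.1 ± 2.17 CPM (SD, n = 6) and was not called (log2 fold change -0.04, edgeR adjusted p = 0.696). Both lower genes belong to the calcineurin system, the Ca2+/calmodulin-dependent phosphatase that opposes CaM kinases at many substrates. They were Ppp3cc, a catalytic subunit (log2 fold change -0.15, edgeR adjusted p = 0.00987), whose exons share bases with another gene, and Rcan1, a calcineurin regulator named after its value was seen (log2 fold change -0.13, edgeR adjusted p = 0.0151). The list had 0 lower genes under the neuronal marker scaling, and 2 higher and 4 lower without control replicates 1 and 2. The main neuronal catalytic subunits Ppp3ca and Ppp3cb, also chosen afterwards, had log2 fold changes of -0.10 and -0.02 (edgeR adjusted p = 0.121 and 0.889). The regulatory subunit gene Ppp3r1, likewise chosen afterwards, had a log2 fold change of 0.16 and was not called (edgeR adjusted p = 0.245).

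Synaptic partners and substrates of CaMKII had 0 of 15 genes higher and 1 lower, beside 11.5% and 10.7% of all tested genes (1 and 1 at an unadjusted p under 0.05; median log2 fold change -0.03). The lower gene was Gria1, the AMPA receptor subunit that CaMKII phosphorylates. It had 706, 721 and 767 CPM in control and 656, 676 and 690 CPM in mimic, without overlap. Its log2 level fell by 0.11 (SE 0.030, edgeR adjusted p = 0.0115), a call that was lost under the neuronal marker scaling (log2 fold change -0.06, edgeR adjusted p = 0.369). The NMDA receptor subunit gene Grin2b, chosen afterwards, whose protein docks CaMKII at the synapse, had 683 ± 52.9 CPM in control and 671 ± 7.90 in mimic (SD, n = 6, log2 fold change -0.03, edgeR adjusted p = 0.737). Without control replicates 1 and 2 the list had 6 higher and 3 lower genes, while all tested genes went from 4182 calls to 5950.

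The CREB and MEF2 arm, on which CaMKIV acts, had 1 of 13 genes higher and 0 lower, beside 11.5% and 10.7% of all tested genes (2 higher and 1 lower at an unadjusted p under 0.05; median log2 fold change -0.01). The called gene was Atf1, a CREB family factor, at 5.61 ± 0.534 CPM in control and 6.47 ± 0.327 in mimic (SD, n = 6, log2 fold change 0.21, edgeR adjusted p = 0.0445), and this call was kept in 2 of the 12 fits without 1 library. Without control replicates 1 and 2 the arm had 2 higher genes. Creb1, chosen afterwards, had a log2 fold change of 0.11 (edgeR adjusted p = 0.410). Of 11 CREB target genes, 8 were higher and 1 was lower, beside 11.5% and 10.7% of all tested genes, with a median log2 fold change of 0.34 beside -0.01 over all tested genes. The list was chosen with earlier results of these data known, so these counts are a description only. Btg2, an antiproliferative target, had 26.3, 26.9 and 28.0 CPM in control and 43.6, 47.8 and 51.2 CPM in mimic (log2 fold change 0.81, SE 0.046, edgeR adjusted p = 2.43e-09). Arc, which regulates AMPA receptor endocytosis, had 11.8, 12.5 and 17.3 CPM in control and 18.1, 19.4 and 22.8 CPM in mimic (log2 fold change 0.59, SE 0.085, edgeR adjusted p = 6.17e-05). Neither overlapped. Fos, named after its value was seen, went the other way, from 18.5 ± 0.528 to 15.3 ± 1.38 CPM (SD, n = 6, log2 fold change -0.28, edgeR adjusted p = 0.00134). These genes respond to many kinases besides CaMKIV, and whether CaM kinase activity had a part in their levels was not tested.

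AMPK is the other target of CaMKK2. The list held 6 of the AMPK subunit genes and Stk11, the gene of its upstream kinase LKB1. Of these 7 genes, 1 was higher and 2 were lower, beside 22.2% of all tested genes in either direction (median log2 fold change 0.00). The regulatory beta subunit gene Prkab1 was higher by 0.36 on the log2 scale (21.5 ± 1.78 to 27.6 ± 1.97 CPM, SD, n = 6, edgeR adjusted p = 0.000235). Prkaa1, for a catalytic alpha subunit, fell by 0.33 on the log2 scale (43.9 ± 3.91 to 35.0 ± 2.44 CPM, SD, n = 6, edgeR adjusted p = 0.000599). The gamma subunit gene Prkag2, chosen afterwards, fell by 0.15 on the log2 scale, and its exons share bases with 2 antisense genes. Without control replicates 1 and 2 the list had 2 higher and 3 lower genes.

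**Figure D5:**
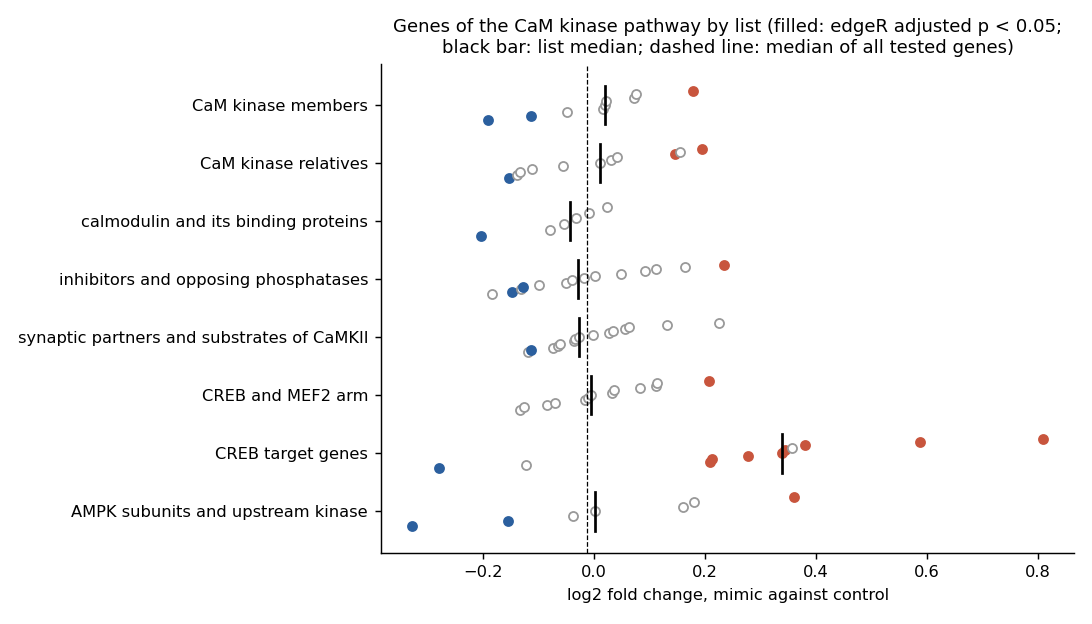
Log2 fold change of mimic against control (x axis) for each tested gene of the 9 CaM kinases and of 7 lists of related genes, with filled points for an edgeR adjusted p under 0.05, a black bar at each list's median and a dashed line at the median of all tested genes (-0.01). The CREB target genes lie mostly to the right, with a median of 0.34, and the other lists have medians between -0.04 and 0.02.

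Some markers of other cell types differed between the same libraries, where 11.5% of all tested genes were higher and 10.7% lower. All 5 oligodendrocyte precursor markers were higher, and their summed level was 367 to 662 CPM in control and 746 to 939 in mimic. Likewise all 4 markers of dividing cells were higher, at 136 to 170 CPM in control and 290 to 307 in mimic. Of 7 astrocyte markers, 5 were higher and 1, Gfap, was lower, and the sum went from 4810 to 5297 CPM in control to 5627 to 6092 in mimic. Of the 8 neuronal markers 1 was higher and 2 were lower, and of the 6 excitatory markers 3 were lower, with overlapping sums (1213 to 1317 CPM in control and 1235 to 1300 in mimic for the latter). The 5 interneuron markers had 1 higher gene and the 5 microglial markers 1 lower gene, also with overlapping sums. These counts are too small to set apart from the shares over all tested genes. No marker was at 0 in all libraries, although the endothelial Cldn5 did not pass the filter. Set against the summed neuronal and excitatory markers of its own library, Camk2a was still higher by 0.24 and Camk2b lower, with a difference of -0.13, on the log2 scale, and both then overlapped between the groups. The part of cell type make-up in the CaM kinase differences was not tested.

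As a description of which genes varied alongside, log2 CPM was centred on each group's mean and correlated over the 12 libraries with 12370 other genes of at least 100 mean counts. Camk2a was most like Slc13a3 (Pearson r 0.953), Prelid3a (0.951) and Cbx6 (0.944). Control replicate 1 carried much of this, since without it r was 0.779, 0.797 and 0.688. Camk2b was most like Arhgap33 (Pearson r 0.989), Hk1 (0.986) and Dpf1 (0.985), and without control replicate 1 these were 0.962, 0.952 and 0.956. The libraries are shared by all genes, and no test was attached to these values.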

How the data were processed

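Per the labels, poly(A) RNA libraries (TruSeq) gave single-end reads of 50 bp. Alignment by the authors was to mm10 (STAR 2.5.2b), and the authors deposited raw counts per Ensembl gene (featureCounts, Subread 1.5.1), which are used here. Use of strand is not given in the sources used here. The normalized series table was not used. GENCODE M21 named 48349 of 48709 genes.

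Genes with at least 5 counts in 6 of 12 samples were tested with the edgeR 4.0.16 quasi-likelihood F-test (robust, TMM, no covariate, R 4.3.3) and Benjamini-Hochberg adjustment over all tested genes. An adjusted p under 0.05 was called. Alternatives were DESeq2 1.42.0 (the study's tool), RLE factors, neuronal marker scaling, no filter, a minimum fold change of 1.2, a replicate block and left-out libraries. The CaM kinase genes and the lists were chosen with earlier results of these data known. Besides the 9 members, the named genes were Camk1g, Pnck, Camkv, Camk2n1, Camk2n2, per list the 2 called genes with the largest absolute change and at least 100 mean counts, the markers, and the 3 genes most correlated with Camk2a and Camk2b; others are marked as chosen afterwards. Of the listed genes, 1 is not reported here by name.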

Additional observations from a re-analysis of the deposited data

Results flagged for a closer look

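Among 82 groups of 6 libraries examined for a value far from the rest (the members, the CaMKII shares, the ratios and the CaMKII sum, the named genes of the lists and the marker sums), 7 stood out, where chance would give about 4.1 if the groups were independent. They are not, because they share the same libraries and some are sums or ratios of the same genes, so this figure is only a rough guide. Camk4 had 522 CPM in mimic replicate 3, while the other mimic libraries had 461 to 480.5 CPM, a gap of 0.677 of the group's range. Its log2 fold change stayed uncalled in each fit without 1 library, with values from 0.03 to 0.10.

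Control replicate 1 was the high library in 5 of the others. The summed level of the 4 CaMKII genes was 3262 CPM there and 2721 to 2902 CPM in the other controls. Dclk2 had 233 CPM against 198 to 209, Gap43 had 993 CPM against 894 to 921, and Arc had 17.3 CPM against 11.8 to 13.4. The oligodendrocyte precursor markers summed to 662 CPM there and to 367 to 397 CPM in the other controls. The endothelial markers summed to 1.36 CPM in mimic replicate 1 and to 0.668 to 0.904 CPM in the other mimic libraries.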

How the results depend on the processing

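Camk2a was called higher and Camk2b lower with DESeq2, RLE factors, no filter, the replicate block and every left-out library. With a minimum fold change of 1.2, 0 members were higher and 0 lower. The lower members numbered 0 under neuronal marker scaling, 1 without the filter, 1 under the replicate block and 1 to 2 when 1 library was left out, Camk2g being the one lost. Directions turned for Camk2d under neuronal marker scaling (0.0097), for Camk4 (-0.025) and Camk1d (-0.024) without control replicates 1 and 2, for Camkk1 when 1 library was left out (-0.012 to 0.077), and for Camk2n2 under neuronal marker scaling (0.014), when 1 library was left out (-0.062 to 0.0059) and without control replicates 1 and 2 (0.046), all log2 fold changes of uncalled genes; the causes were not tested.

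Same-numbered samples deviated together by a correlation of at most 0.067 and none was closest to its own number, so the numbers pair nothing. With that replicate block 3659 genes were called in place of 4182, and of the lists, the phosphatase list had 1 lower, the CaMKII partners 1 higher and 0 lower, and the CREB and MEF2 arm 0 higher; Camk2g (edgeR adjusted p = 0.0717) and Gria1 (0.0529) lost their calls. Under neuronal marker scaling the relatives had 0 lower, the inhibitor list 3 higher and 0 lower, the partners 0 lower, the CREB and MEF2 arm 2 higher, and AMPK 2 higher and 1 lower. DESeq2 gave 2 higher in the inhibitor list. Without control replicates 1 and 2, an alternative added after seeing the data for the lists, the relatives had 3 higher and 2 lower, the calmodulin list 2 lower, the inhibitor list 2 higher and 4 lower, the partners 6 higher and 3 lower, the CREB and MEF2 arm 2 higher and AMPK 2 higher and 3 lower. Counting any annotated 3′ UTR gave 1 member with a control seed match in place of 0.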
